A study of Mus musculus with 3 samples.

Results

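The genes described are 9 neutrophil genes, S100a8, S100a9, Camp, Ngp, Ltf, Lcn2, Mmp8, Retnlg and Ly6g, which were chosen by name from the 19039 genes of the RNA library, and all 9 were found in each of 3 cDNA matrices. The matrices came from 1 droplet pool (10x 3' v3) that carried RNA, 35 antibody tags and the hashing tags of 8 samples, and they hold 2653 cells of naive brain, 5933 cells of brain with metastases and 2924 cells of blood from metastasis-bearing mice. Mice of the depleted arm carried Cx3cr1CreERT and ROSA-iDTR, and mice of the control arm carried Cx3cr1CreERT alone, so that in the depleted arm tamoxifen makes Cx3cr1-expressing cells and their progeny carry a receptor for diphtheria toxin. All mice were female C57Bl/6 of 2 to 3 months and received tamoxifen, a pause of a month and then diphtheria toxin, the controls included. Metastases were grown from E0771 cells, a mammary cancer line of the mouse, given through the carotid artery about 2 weeks before the brains were taken, and naive mice carried no tumour. Brains were perfused and enriched for immune cells with Percoll, the red cells of the blood were lysed, and a sample was 1 brain hemisphere or blood. Per the submitters, some microglia remain in depleted samples. The annotation gave 1 hashed sample per arm for naive brain and for blood, and the cells of the brain with metastases could not be split by arm. There were therefore no replicates, no test between conditions was possible, and every interval given covers counting error only.

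Neutrophils are made in the bone marrow, where their granules are filled in a fixed order. Promyelocytes make primary granule proteases such as elastase (Elane) and myeloperoxidase (Mpo), myelocytes and metamyelocytes make the secondary granule proteins, gelatinase (Mmp9) follows, and mature cells carry the receptors Cxcr2 and Csf3r that govern their release and survival. Of the 9 genes, Camp encodes the antimicrobial cathelicidin, Ngp neutrophilic granule protein, Ltf the iron-binding lactoferrin and Lcn2 the siderophore-binding lipocalin, all known from secondary granules. Mmp8 encodes neutrophil collagenase. S100a8 and S100a9 encode the subunits of calprotectin, a calcium-binding protein very abundant in the neutrophil cytoplasm. Retnlg is a resistin-like gene of mouse neutrophils and Ly6g encodes the surface protein that antibodies use to mark mouse neutrophils.

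The 9 genes were matched to RefSeq on GRCm38.p6. Camp (chr9:109847377-109849456), Ngp (chr9:110419808-110423012) and Ltf (chr9:111019292-111042766) lie within 1.20 Mb of each other. S100a8 (chr3:90669071-90670034) and S100a9 (chr3:90692630-90695721) are 22.6 kb apart. Lcn2 is at chr2:32384637-32387739, Mmp8 at chr9:7558429-7568486, Retnlg at chr16:48872608-48874498 and Ly6g at chr15:75155261-75159128. The promoters of 6 genes are shown because Camp, Ngp and Ltf moved together from cell to cell, Lcn2 moved with them in part, and S100a8 and S100a9 followed each other closely in most neutrophils. Each is the 250 bases before the gene's start, 5′ to 3′ on the gene's strand, with capitals marking, on either strand, the letters TTNNGNAA (the type bound by C/EBP factors) and GAGGAA (the type bound by ETS factors such as PU.1).
Camp (chr9:109849457-109849706, minus strand): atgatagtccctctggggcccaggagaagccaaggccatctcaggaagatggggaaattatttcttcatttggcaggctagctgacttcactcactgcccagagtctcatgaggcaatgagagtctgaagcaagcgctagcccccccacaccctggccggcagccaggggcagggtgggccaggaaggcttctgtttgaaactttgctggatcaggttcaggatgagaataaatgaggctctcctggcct
Ngp (chr9:110419558-110419807, plus strand): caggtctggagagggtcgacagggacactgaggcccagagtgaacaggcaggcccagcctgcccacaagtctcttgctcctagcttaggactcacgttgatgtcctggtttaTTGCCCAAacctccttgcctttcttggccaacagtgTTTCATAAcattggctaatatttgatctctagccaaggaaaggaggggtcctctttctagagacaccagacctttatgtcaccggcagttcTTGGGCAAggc
Ltf (chr9:111019042-111019291, plus strand): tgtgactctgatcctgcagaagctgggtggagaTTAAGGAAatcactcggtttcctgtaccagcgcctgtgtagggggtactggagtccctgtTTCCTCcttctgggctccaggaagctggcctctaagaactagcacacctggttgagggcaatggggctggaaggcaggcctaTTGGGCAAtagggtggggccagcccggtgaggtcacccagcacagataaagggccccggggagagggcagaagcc
Lcn2 (chr2:32387740-32387989, minus strand): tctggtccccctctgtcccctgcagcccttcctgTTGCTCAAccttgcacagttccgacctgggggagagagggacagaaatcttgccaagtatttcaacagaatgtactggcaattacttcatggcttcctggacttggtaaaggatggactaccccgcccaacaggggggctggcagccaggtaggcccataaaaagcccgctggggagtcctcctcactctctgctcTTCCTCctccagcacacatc
S100a8 (chr3:90668821-90669070, plus strand): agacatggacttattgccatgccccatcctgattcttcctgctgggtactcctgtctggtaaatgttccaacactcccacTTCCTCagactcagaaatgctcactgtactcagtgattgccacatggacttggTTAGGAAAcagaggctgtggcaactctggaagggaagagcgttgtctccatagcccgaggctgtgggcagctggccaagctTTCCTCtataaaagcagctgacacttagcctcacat
S100a9 (chr3:90695722-90695971, minus strand): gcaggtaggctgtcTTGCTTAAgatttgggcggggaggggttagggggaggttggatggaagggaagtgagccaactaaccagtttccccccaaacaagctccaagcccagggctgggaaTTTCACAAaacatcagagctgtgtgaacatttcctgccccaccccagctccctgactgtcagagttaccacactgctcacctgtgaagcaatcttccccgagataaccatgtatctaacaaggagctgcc
TTNNGNAA was found in 5 of these 6 promoters, against 36.8% of 32851 promoters of the same length, and GAGGAA in 3 of 6, against 23.3%. Ngp held TTNNGNAA at 138, 102 and 11 bases before the start, Ltf at 217 and 75, S100a9 at 236 and 130, S100a8 at 117 and Lcn2 at 216. A match describes the letters and is not a binding site, and Camp, with neither motif in this window, moved with Ngp and Ltf all the same.

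Facts of the whole series touch every result. The authors' matrices hold corrected molecule counts (UMIs), with medians per cell of 9613 in naive brain, 13647 in brain with metastases and 5118 in blood. Levels are given as CP10k, corrected UMIs per 10000 summed over a class, and they are set across matrices that were corrected separately. The microglia cluster of the naive brain held 36.7% of cells in the sample labelled depleted and 17.1% in the sample labelled control, and its Cx3cr1 level was 10.0 CP10k against 1.72 CP10k, which goes against the labels, so the samples are named by their labels throughout. Barcodes listed in more than 1 matrix made up 29.1% of naive brain cells, 17.1% of cells of the brain with metastases and 28.5% of blood cells. All 339 barcodes that the naive brain and blood share had the same raw total in both. A tumour or epithelial-like cluster of 111 cells, 72.1% of them with shared barcodes, was present in the naive brain, whose mice carried no tumour. Results are therefore also given without shared barcodes where that changes them. Fewer neutrophils cannot be told from a lower recovery of neutrophils.

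The neutrophil clusters were named from 15 marker genes that hold none of the 9. The authors' clusters of the naive brain and blood were taken as given, and were not cut again without the 9. Their leading genes were Ngp, Camp and Ltf in the naive brain and S100a9, S100a8 and Retnlg in the blood. Levels and detection of the 9 inside and outside these 2 clusters are therefore not independent of the clustering. The authors' cluster 7 of the naive brain passed on 15 of 15, the authors' cluster 0 of the blood on 14, and in the brain with metastases, clustered here without the 9 genes, cluster 16 passed on 13 and cluster 24 on 15. In the naive brain they were 56 of 1868 cells (3.00%, exact 95% interval 2.27 to 3.88) in the sample labelled depleted and 49 of 785 (6.24%, 4.65 to 8.17) in the sample labelled control. In the blood they were 429 of 1553 cells (27.6%, 25.4 to 29.9) in the sample labelled depleted and 537 of 1371 (39.2%, 36.6 to 41.8) in the sample labelled control. The brain with metastases held 232 neutrophils among 5933 cells (3.91%, 3.43 to 4.44), 99 in cluster 16 and 133 in cluster 24. Of the 105 naive brain neutrophils, 69 had shared barcodes, and 28 of these were also in the neutrophil cluster of the blood and 16 in its T and NK cell cluster. Without shared barcodes 36 naive brain neutrophils remained, 18 in each sample.

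The calgranulins were present in nearly every neutrophil. S100a8 was at 533 CP10k (527 to 539) in the naive brain sample labelled depleted and 786 in that labelled control, at 965 in cluster 16 and 459 in cluster 24 of the brain with metastases, and at 730.2 in the blood sample labelled depleted and 762 in that labelled control. S100a9 was at 795 and 1207 CP10k in the naive brain samples labelled depleted and control, at 1319 in cluster 16 and 758 in cluster 24, and at 1109.8 and 1224 in the blood samples labelled depleted and control. Both genes were detected in 100% of naive brain, cluster 24 and blood neutrophils. In cluster 16, 94.9% of cells had an S100a8 molecule and 91.9% an S100a9 molecule. The 6 groups therefore spanned a narrow range for both genes, highest in cluster 16 and lowest in cluster 24.

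The secondary granule genes Camp, Ngp and Ltf spread far more. Camp was at 112 and 144 CP10k in the naive brain samples labelled depleted and control, at 320.1 in cluster 16 and 0.424 in cluster 24, and at 7.16 and 4.35 in the blood samples labelled depleted and control. Ngp was at 113 CP10k in the naive brain sample labelled depleted and 125 in that labelled control, at 239 in cluster 16 and 1.03 in cluster 24, and at 7.60 in the blood sample labelled depleted and 4.57 in that labelled control. Ltf was at 24.5 CP10k in the naive brain sample labelled depleted and 35.4 in that labelled control, at 66.4 in cluster 16 and 0.159 in cluster 24, and at 2.30 in the blood sample labelled depleted and 1.41 in that labelled control. All 3 genes were highest in cluster 16, lower in the naive brain, far lower in the blood and lowest in cluster 24. Within a sample they were in a minority of cells at high level. Camp had a molecule in 41.1% of neutrophils of the naive brain sample labelled depleted and 40.8% of that labelled control, its median per cell was 0 in both, and the highest cells held 1136 and 841 molecules. In the blood, 28 of 429 and 34 of 537 neutrophils labelled depleted and control had a Camp molecule, and the top 5% of cells held 99.6% and 99.3% of all Camp molecules. For scale, Camp was detected in 5.01% of naive brain T cells and 3.21% of blood B cells. Raw medians were 6534 and 4200 UMIs in those cells, against 8121 in naive brain neutrophils and 3016 in blood neutrophils.

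Lcn2, Mmp8, Retnlg and Ly6g lay between these patterns. Lcn2 was at 56.2 and 69.9 CP10k in the naive brain samples labelled depleted and control, at 119 in cluster 16 and 19.9 in cluster 24, and at 28.3 and 20.7 in the blood samples labelled depleted and control. Unlike Camp, it was detected in most neutrophils of every group, from 82.7% in the blood sample labelled control to 93.9% in cluster 16. Mmp8 was at 7.34 CP10k in the naive brain sample labelled depleted and 9.85 in that labelled control, at 10.5 in cluster 16 and 3.35 in cluster 24, and at 5.69 in the blood sample labelled depleted and 4.89 in that labelled control. The same groups were high as for Lcn2. Retnlg was at 97.2 CP10k in the naive brain sample labelled depleted and 160.3 in that labelled control, at 106 in cluster 16 and 117 in cluster 24, and at 200.4 in the blood sample labelled depleted and 131 in that labelled control. It is the gene whose order of groups differed most from that of Camp, with the blood sample labelled depleted highest. Ly6g was at 2.87 CP10k in the naive brain sample labelled depleted and 4.16 in that labelled control, at 4.75 in cluster 16 and 0.789 in cluster 24, and at 0.840 in the blood sample labelled depleted and 1.14 in that labelled control. Its levels were low throughout and followed the order of Camp in the brain.

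**Figure D1:**
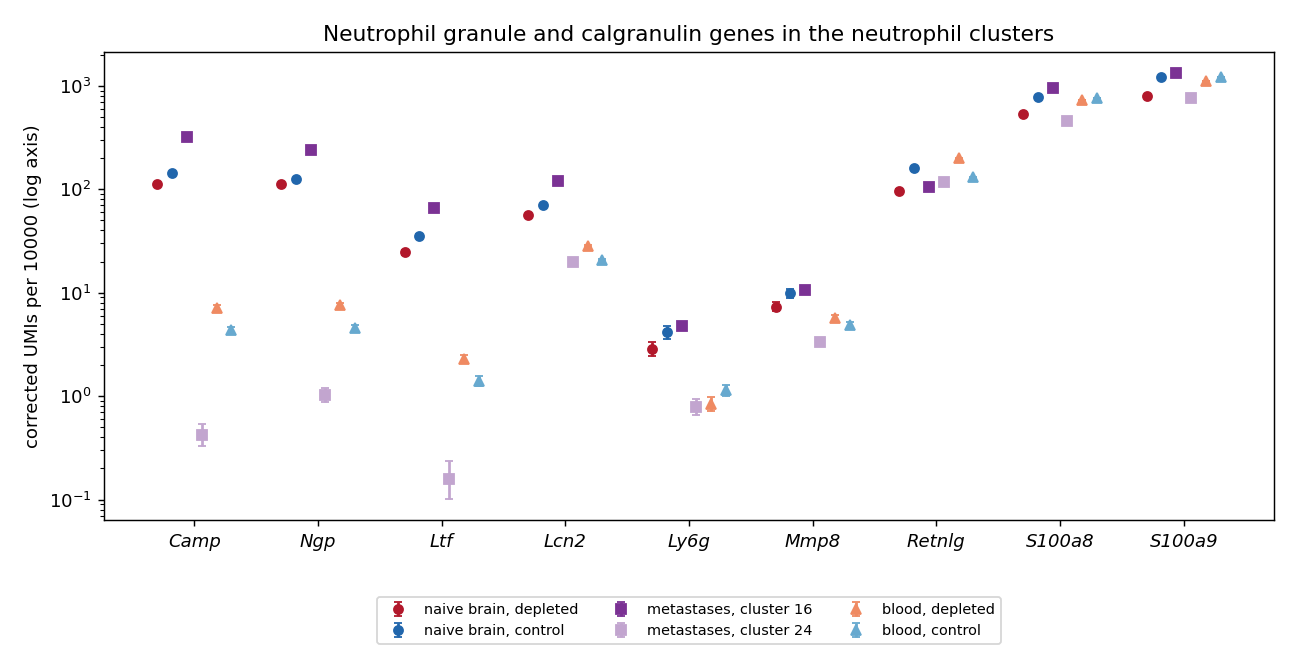
Corrected UMIs per 10000 (log axis) of the 9 genes in the neutrophils of each sample, with exact 95% Poisson intervals for counting error. Camp, Ngp and Ltf separate the groups most, from 320.1 to 0.424 CP10k for Camp, while S100a8 and S100a9 stay within a narrow band.

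Cluster 16 was then set against cluster 24 of the brain with metastases, as a description of the extremes. Camp differed by 9.25 on the log2 scale, Ngp by 7.73, Lcn2 by 2.58, Ly6g by 2.45, Mmp8 by 1.62, S100a8 by 1.07 and S100a9 by 0.80, all higher in cluster 16, and Retnlg by −0.14. Ltf, with 9051 molecules in cluster 16 against 24 in cluster 24, had the same direction. These values add a pseudocount of 0.1 CP10k, which understates the change of low genes such as Ltf. Of the 9 genes 7 were past 2-fold higher, where 11.1% of the 2794 genes measured were past 2-fold higher. The clusters were cut from the other genes of the same cells, so neither this count nor those that follow is a test. Primary granule genes were past 2-fold higher in cluster 16 for 5 of 5, with Elane at 29.7 CP10k against 0.0199 and Mpo at 16.4 against 0. These levels came from few cells, since the 76 cells of cluster 16 with 10 or more Camp, Ngp and Ltf molecules and no Elane had Mpo at 0 CP10k, Ctsg at 0.00976 and Prtn3 at 0.400. Of 6 further early and secondary granule genes 4 were past 2-fold higher, such as Chil3, a chitinase-like protein (42.1 against 0.543 CP10k), and Cebpe, the transcription factor needed for secondary granules (3.94 against 0.152). All 8 cell cycle genes were past 2-fold higher, with Mki67 at 2.85 CP10k against 0.0530. Of 14 genes of late neutrophils 12 were past 2-fold lower (19.4% of all genes measured), including Csf3r (1.11 against 11.9 CP10k), Cxcr2 (1.56 against 7.72) and the cytokine gene Il1b (5.21 against 125). Shared barcodes made up 20.2% of cluster 16 and 42.1% of cluster 24, and without them the same count of 7 genes was past 2-fold. Classical monocyte markers summed to 68.7 CP10k in cluster 16 (8 of 8 above 0) and 2.64 in cluster 24 (7 of 8, Vcan at 0). That list holds Chil3 and Ly6c2, and its part in the differences was not tested.

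To order the genes within each tissue, neutrophils were grouped by their summed molecules of Camp, Ngp and Ltf into cells with none, 1 to 2, 3 to 9 and 10 or more. The grouping uses these 3 genes, so they are not results of it. In the naive brain 50, 15, 3 and 37 of 105 cells fell in these groups, and in the blood 810, 118, 15 and 23 of 966. Cluster 16 had 13, 3, 1 and 82 of 99 cells and cluster 24 had 105, 16, 10 and 2 of 133. The distribution was thus split in the naive brain, with few cells between the ends. Of the naive brain cells, 40 of the 50 with none had shared barcodes, against 15 of the 37 with 10 or more. Without shared barcodes 10, 4, 0 and 22 naive brain cells remained in the 4 groups. The share with 10 or more molecules in the naive brain was 19 of 56 (33.9%, 21.8 to 47.8) in the sample labelled depleted and 18 of 49 (36.7%, 23.4 to 51.7) in that labelled control. In the blood it was 13 of 429 (3.03%) in the sample labelled depleted and 10 of 537 (1.86%) in that labelled control. Among cells with unshared barcodes it was 22 of 36 in the naive brain and 12 of 892 in the blood. Raw depth moved with the grouping, with medians of 5210 UMIs per naive brain cell at none and 13245 at 10 or more.

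The levels of the other 6 genes along these groups gave 2 shapes. S100a8 was at 387, 448, 799.7 and 1015 CP10k in the naive brain from none to 10 or more, and at 719, 804, 997 and 1195 in the blood. Lcn2 was at 15.2, 10.9, 50.1 and 137 CP10k in the naive brain and at 20.9, 23.9, 47.1 and 101 in the blood. Mmp8 was at 2.06, 4.87, 14.6 and 16.8 CP10k in the naive brain and at 4.36, 4.79, 14.2 and 27.1 in the blood. In both tissues these genes were at their highest in the cells richest in Camp, Ngp and Ltf. In cluster 24, by contrast, the 2 richest cells were at 639 for S100a8 and 10.4 for Lcn2, below the 914 and 52.1 of its 10 cells with 3 to 9 molecules, while Mmp8 was at 14.9 against 11.8. Ly6g was at 0.458, 2.32, 4.02 and 7.31 CP10k in the naive brain and at 0.774, 1.03, 1.86 and 7.05 in the blood, the same shape at far lower levels. Retnlg had its highest level in the group before. It was at 83.4, 104.5, 385 and 165 CP10k in the naive brain, at 151, 187, 313 and 262 in the blood, and at 80.9, 179, 353 and 282 in cluster 24. In cluster 16 Retnlg was at 495 CP10k in the single cell with 3 to 9 molecules and at 124 in the 82 cells with 10 or more. The group of 3 to 9 held 3 cells in the naive brain, 15 in the blood and 10 in cluster 24, so the peak of Retnlg rests on few cells. Cxcr2 ran the other way, at 9.66, 9.36, 5.85 and 2.63 CP10k in the naive brain and at 19.1, 19.98, 12.3 and 5.11 in the blood.

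**Figure D2:**
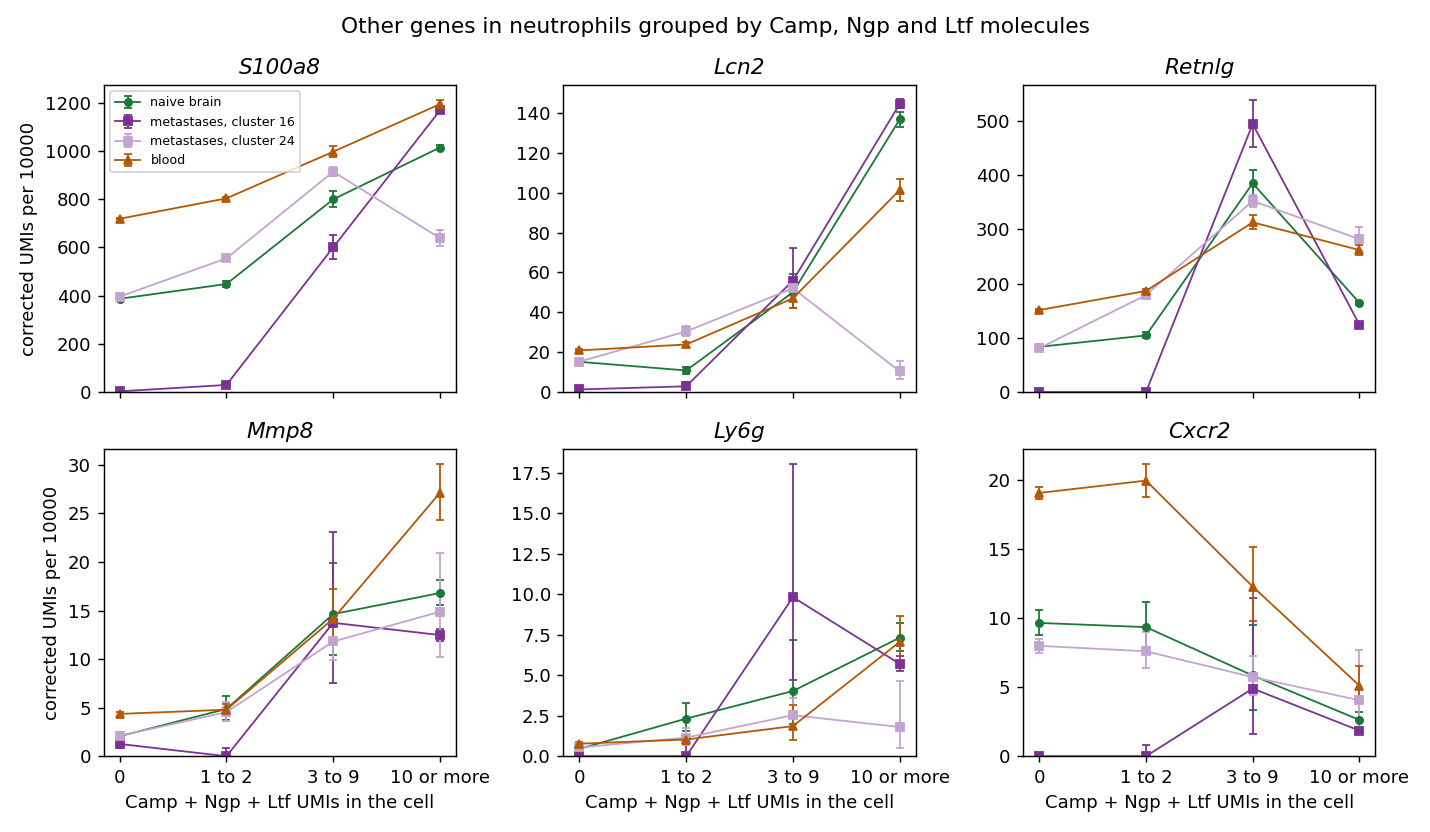
Levels of S100a8, Lcn2, Retnlg, Mmp8, Ly6g and Cxcr2 (corrected UMIs per 10000) in neutrophils grouped by their Camp, Ngp and Ltf molecules, by tissue, with exact 95% Poisson intervals. Retnlg was highest at 3 to 9 molecules in all 4 lines, 385 CP10k in the naive brain, while Cxcr2 was lowest at 10 or more in the naive brain and the blood.

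With the groups joined to at least 3 molecules against none, Lcn2 was higher by 3.1 on the log2 scale for naive brain, 3.30 for brain with metastases and 1.97 for blood neutrophils. Mmp8 was higher by 2.95, 2.59 and 2.35 in the same tissues, and Ly6g by 3.69, 3.27 and 2.61. S100a8 was higher by 1.37, 1.73 and 0.65, S100a9 by 1.27, 1.47 and 0.51, and Retnlg by 1.11, 1.12 and 0.89. All 6 genes were past 2-fold in both brain tissues and 3 of 6 were in the blood, where 7.65%, 6.44% and 8.23% of genes measured were past 2-fold higher in naive brain, metastasis and blood neutrophils. Without shared barcodes Retnlg was under 2-fold in the naive brain (0.44) and past it in the blood (1.06). Cells compared numbered 40 against 50 in the naive brain, 95 against 118 in the brain with metastases and 38 against 810 in the blood, and the 118 include 13 cells of cluster 16 from the Elane-rich group described next. Among the 50 naive brain cells with none, 40 had shared barcodes. Of the 6 further early and secondary granule genes, 5 were past 2-fold higher in the naive brain, and Hp, the haptoglobin gene, was nearly level, at 20.9 CP10k with 10 or more molecules and 19.5 with none. Cd177, a surface protein of neutrophil secondary granules, was at 8.96 CP10k with 10 or more molecules and 0.344 with none in the naive brain, and at 11.2 and 0.683 in the blood. Late neutrophil genes were past 2-fold lower for 6 of 14 in the naive brain, 7 of 14 among the neutrophils of brain with metastases and 5 of 14 in the blood, beside 22.0%, 25.3% and 8.27% of all genes measured. Il1b was at 9.01 CP10k with 10 or more molecules and 64.2 with none in the naive brain, and at 2.56 and 50.9 in the blood. Igkc, an immunoglobulin gene of B cells, stood at 26.1 CP10k in the naive brain cells with none and at 0.744 in those with 10 or more, and its part in these differences was not tested.

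Rank correlations over single neutrophils describe the same order, with cells of 1 library and a shared depth as points. S100a8 and S100a9 had a Spearman rho of 0.97 in the naive brain (105 cells), 0.97 in the brain with metastases (232 cells) and 0.92 in the blood (966 cells). Camp and Ltf had a rho of 0.92, 0.91 and 0.42 in the same tissues, and Camp and Ngp 0.88, 0.91 and 0.32. Retnlg and Camp had a rho of 0.06, −0.09 and 0.08, whereas Retnlg and Mmp8 had 0.69, 0.66 and 0.43. Camp and Csf3r had −0.74, −0.64 and −0.18. Among the 4634 genes detected in at least 5% of blood neutrophils, those most like the summed Camp, Ngp and Ltf by Pearson's r on log values were Adpgk (0.73), Cd177 (0.56), Cybb (0.50), Ifitm6 (0.48), Anxa3 (0.48) and Syne1 (0.43). Those most like the summed Retnlg and Mmp8 were Wfdc21 (0.43), Lyz2 (0.42), Ifitm6 (0.35), S100a6 (0.32) and Cd177 (0.32). The list for Camp, Ngp and Ltf rests on few cells, since 810 of the 966 had none of these 3 genes. Raw medians were 2932 UMIs in those 810 cells and 8762 in the 23 cells with 10 or more molecules.

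A small group within cluster 16 separated the calgranulins from each other. The 16 cells with 0 to 2 molecules of Camp, Ngp and Ltf, 1 of them shared, held 191 S100a8 molecules and 44 S100a9 molecules, a ratio of 4.34 (exact 95% interval 3.11 to 6.17). More S100a8 than S100a9 was counted in 11 of the 16 and less in 2. The ratio was 0.85 (0.820 to 0.881) in the 6 cells with 10 or more molecules and an Elane molecule, 0.727 in the 76 cells with 10 or more and no Elane, and 0.606 in cluster 24. The 16 cells were low for both calgranulins, with S100a8 at 8.15 CP10k and S100a9 at 1.88. Cells outside neutrophils in that tissue were at 7.31 and 10.9, so neither gene was far above the level of other cells. Primary granule genes of the 16 cells were high, with Elane at 92.3 CP10k, Prtn3 at 83.7, Mpo at 70.2 and Ctsg at 64.1. The same cells held the basophil protease genes Prss34 (37.3 CP10k) and Mcpt8 (20.2), and the basophil markers Cpa3 (4.31) and Fcer1a (1.49). Basophil markers summed to 10.9 CP10k over cluster 16, with 4 of 4 above 0, and to 0 in cluster 24. The part of those markers in the ratio was not tested. The 6 cells with Elane were at 399 CP10k for Camp, 585 for S100a8, 0.211 for Retnlg and 0 for Mmp8. The 76 cells without Elane were at 389 for Camp, 1223 for S100a8, 136 for Retnlg and 13.6 for Mmp8. In these 6 cells Camp was thus near its level in the 76 cells, while Retnlg and Mmp8 were at or near 0. Mmp8 did not simply follow Camp here, since the 16 cells had Mmp8 at 1.02 CP10k with Camp at 0.0854.

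Naive brain neutrophils were set against blood neutrophils, which also differ in tumour status because the blood came from mice with metastases. Camp was at 127 CP10k in the naive brain against 5.60 in the blood (log2 4.48), Ngp at 118 against 5.91 (4.30) and Ltf at 29.5 against 1.80 (3.96). Ly6g was at 3.46 against 1.01 (1.68), Lcn2 at 62.5 against 24.1 (1.37) and Mmp8 at 8.49 against 5.24 (0.69). Retnlg was at 126 against 162 (−0.36), S100a8 at 649 against 748 (−0.20) and S100a9 at 984 against 1173 (−0.25). The 5 genes past 2-fold higher stand beside 11.3% of the 2642 genes measured. Without shared barcodes 6 of 9 were past 2-fold higher, now also Mmp8 (log2 1.25), with a log2 ratio of 2.23 for Lcn2 and with Camp at 274 against 2.43 CP10k (6.76), beside 12.7% of genes, and S100a8 (0.18) and S100a9 (0.15) were then higher in the naive brain. In samples labelled depleted 4 of 9 were past 2-fold higher (14.6% of genes) and 1, Retnlg, was past 2-fold lower (log2 −1.04), beside 5.73% of genes. In samples labelled control 5 were past 2-fold higher (10.2%) and Retnlg was slightly higher (0.29). Of the early and secondary granule genes outside the 9, 4 of 6 were past 2-fold higher, such as Chil3 (13.6 against 1.27 CP10k) and Olfm4, a granule glycoprotein gene (3.44 against 0.436). Of the 14 late neutrophil genes 3 were past 2-fold lower, beside 4.31% of genes, and the receptors of mature cells were lower, with Cxcr2 at 6.80 against 18.7 CP10k and Csf3r at 9.82 against 26.3, but G0s2, a further late gene, was higher, at 17.6 against 2.71. The neutrophils of the brain with metastases, set against the same blood cells, had 5 of 9 genes past 2-fold higher, beside 18.8% of genes. Camp was higher by 4.74 on the log2 scale there and Retnlg lower, at −0.53. Both brain comparisons share the blood cells.

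Between the arms, all 9 genes were lower in naive brain neutrophils labelled depleted than in those labelled control, by 0.15 (Ngp) to 0.72 (Retnlg) on the log2 scale. The log2 ratio of S100a8 was −0.56 (−0.58 to −0.54) and that of Camp −0.36 (−0.42 to −0.31). None was past 2-fold, beside 7.64% of genes measured past 2-fold in either direction and a median of 0.11 over all genes. Without shared barcodes Ngp was higher (0.08), Lcn2 nearly level (−0.03), Mmp8 lower by more (−0.82), and 8 of 9 were lower, beside 18.4% of genes past 2-fold and none of the 9. The median hashing tag of these cells was 832.5 counts in the sample labelled depleted and 113 in that labelled control. Markers of other cells were not even between the samples. Macrophage markers summed to 73.5 CP10k (8 of 8 above 0) in the sample labelled depleted and 12.4 (6 of 8, Arg1 and Gpnmb at 0) in that labelled control. T cell markers summed to 10.6 CP10k (9 of 9) in the sample labelled depleted and 1.63 (7 of 9, Cd4 and Cd28 at 0) in that labelled control, and microglia markers to 35.2 CP10k in the sample labelled depleted and 23.7 in that labelled control (10 of 10 in both). Endothelial markers summed to 1.98 CP10k (7 of 8, Cdh5 at 0) in the sample labelled depleted and 9.49 (8 of 8) in that labelled control. Their part in the lower levels was not tested. Late neutrophil genes were lower for 13 of 14, such as Il1b at 31.7 CP10k in the sample labelled depleted against 53.2 in that labelled control. Of the 14, 2 were past 2-fold lower, beside 1.62% of genes. The early and secondary granule genes outside the 9 went the other way, with 4 of 6 higher and 2 past 2-fold, beside 6.02% of genes past 2-fold higher. These were Olfm4, at 5.06 CP10k in the sample labelled depleted against 1.54 in that labelled control, and Fcnb, a ficolin gene, at 1.03 against 0.223. Without shared barcodes 5 of 6 were higher and 3 past 2-fold, beside 12.5% of genes. Late genes were lower for 10 of 14 without them, with 3 past 2-fold lower, beside 5.92% of genes. The 2 primary granule genes then measured, Prtn3 and Ms4a3, had 21 and 18 molecules in the sample labelled depleted against 1 and 0 in that labelled control.

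In the blood, 6 of the 9 genes were higher in neutrophils labelled depleted and none was past 2-fold, beside 0.648% of genes measured. Retnlg was at 200.4 CP10k in the sample labelled depleted and 131 in that labelled control, with medians per cell of 65 and 42 molecules (log2 0.62, interval 0.59 to 0.64). This difference was also present without shared barcodes, at 205 and 128 CP10k (0.68). Camp (0.71), Ngp (0.72), Ltf (0.67), Lcn2 (0.44) and Mmp8 (0.21) were higher as well. The Camp value reversed to −0.33 without shared barcodes, at 2.11 CP10k in the sample labelled depleted and 2.67 in that labelled control. S100a8 (−0.06), S100a9 (−0.14) and Ly6g (−0.40) were lower. Classical monocyte markers summed to 5.86 CP10k in the sample labelled depleted and 2.77 in that labelled control (8 of 8 above 0 in both), with Chil3 at 2.48 CP10k in the sample labelled depleted and 0.308 in that labelled control, and their part was not tested. Chil3 is also among the early and secondary granule genes outside the 9. Of these, 2 of 3 measured were higher, and 1, Chil3, was past 2-fold (log2 2.66), beside 0.0864% of genes past 2-fold higher. Raw medians of these neutrophils were 2898 UMIs in the sample labelled depleted and 3054 in that labelled control.

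**Figure D3:**
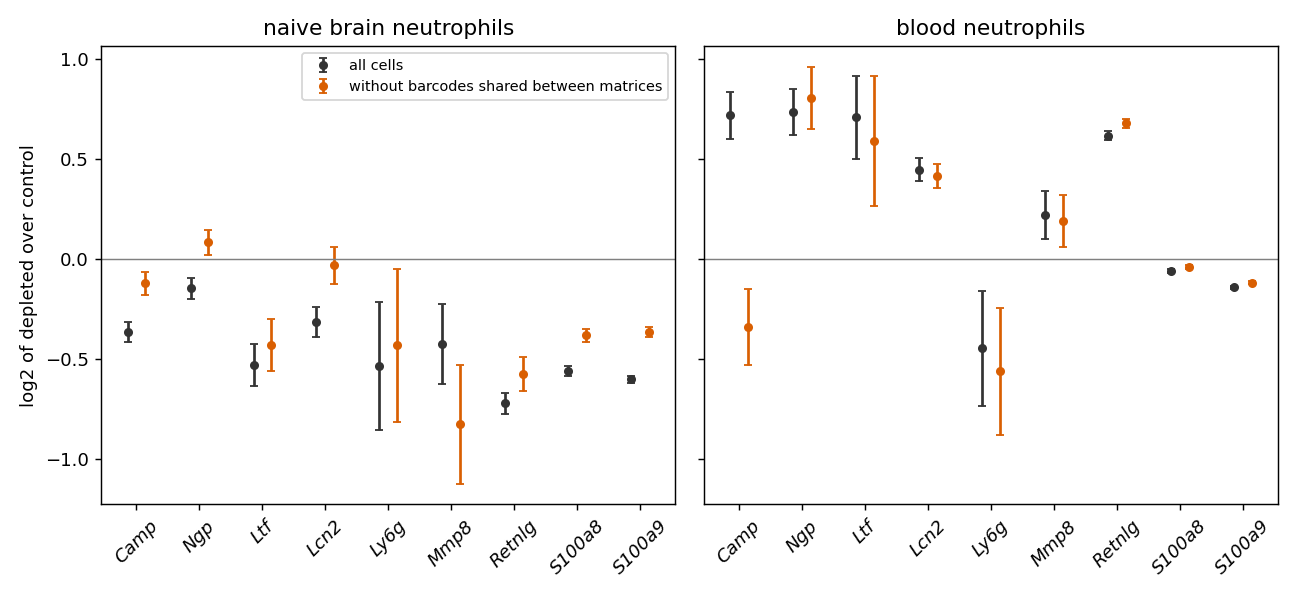
Log2 ratio of the sample labelled depleted over the sample labelled control for the 9 genes in neutrophils of the naive brain and of the blood, with exact 95% intervals for counting error and without a pseudocount, for all cells and without shared barcodes. All 9 black points lie below 0 in the naive brain, and the Camp point of the blood changes side without shared barcodes.

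The transcript and the surface protein of Ly6g differed in how often they marked a cell. The authors' Ly6C+Ly6G+ gate on antibody tags held 807 of 966 blood neutrophils (83.5%), and a Ly6g molecule was counted in 147 of those 807 (18.2%, 15.6 to 21.1). Outside the gate a molecule was counted in 25 of 159 (15.7%, 10.4 to 22.3), so the RNA shares inside and outside overlapped within counting error. The earlier deposited annotation had identical arms and clusters. Its gate was read from the column for CD11b+ cells, whereas the gate above was the final surface gate of the updated annotation. The earlier gate held 912 of 966 blood neutrophils (94.4%), with a Ly6g molecule in 165 (18.1%) inside and 7 of 54 (12.96%) outside. In all it held 1324 blood cells, against 895 for the final gate. These counts therefore differ in column as well as in annotation. In the naive brain, Ly6C+Ly6G+ cells that were also in a CNS-native myeloid, B220+ or NK and T cell gate were left out here. The gate then held 59 of 105 neutrophils, with a Ly6g molecule in 30 of 59 (50.8%) inside and 16 of 46 (34.8%) outside. Over all neutrophils, 43.8% of naive brain cells and 17.8% of blood cells had a Ly6g molecule, and 29.5% and 11.3% did after every cell was thinned to 2000 corrected UMIs, with no cell left out. The gene was counted in 0 of 499 naive brain T cells and 0 of 249 blood B cells. A further 55 cells of other clusters of the naive brain were in the gate, 47 of them shared between matrices, with S100a8 at 69.4 CP10k.

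Outside the neutrophil clusters, the calgranulins were counted in every tissue at low level. S100a8 was at 9.82 CP10k over all other cells of the naive brain, 7.31 over those of brain with metastases and 24.4 over those of blood, and 27.4%, 21.9% and 7.65% of its molecules lay outside neutrophils. Camp was at 0.507, 0.135 and 0.567 CP10k in these other cells, with 9.09%, 2.33% and 20.4% of its molecules. Ly6g was lowest, at 0.0246, 0.0171 and 0.0596 CP10k. Few cells carried most of these molecules. In blood classical monocytes, 24.6% and 23.8% of cells labelled depleted and control had an S100a8 molecule, and the top 5% of cells held 86.9% and 88.5% of them. In the blood T and NK cell cluster, of which 49.0% had shared barcodes, S100a8 was at 40.7 CP10k in the sample labelled depleted and 39.5 in that labelled control, and at 18.7 and 3.06 without shared barcodes. Cells of mixed clusters are counted here as outside. Cluster 26 of the brain with metastases, 133 cells with 66.9% of barcodes shared, held 13 of 15 neutrophil markers beside 10 of 10 of microglia, and was led mostly by neutrophil genes such as Stfa1, Stfa2, Cxcr2 and Csf3r. It had S100a8 at 109.8 CP10k and held 8.09% of the S100a8 molecules of that tissue, and 13.8% lay outside neutrophils and this cluster. Cluster 2 of the blood, with 82.7% of barcodes shared, held markers of microglia and macrophages, and 17.8% of the Camp molecules of the blood.

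**Figure D4:**
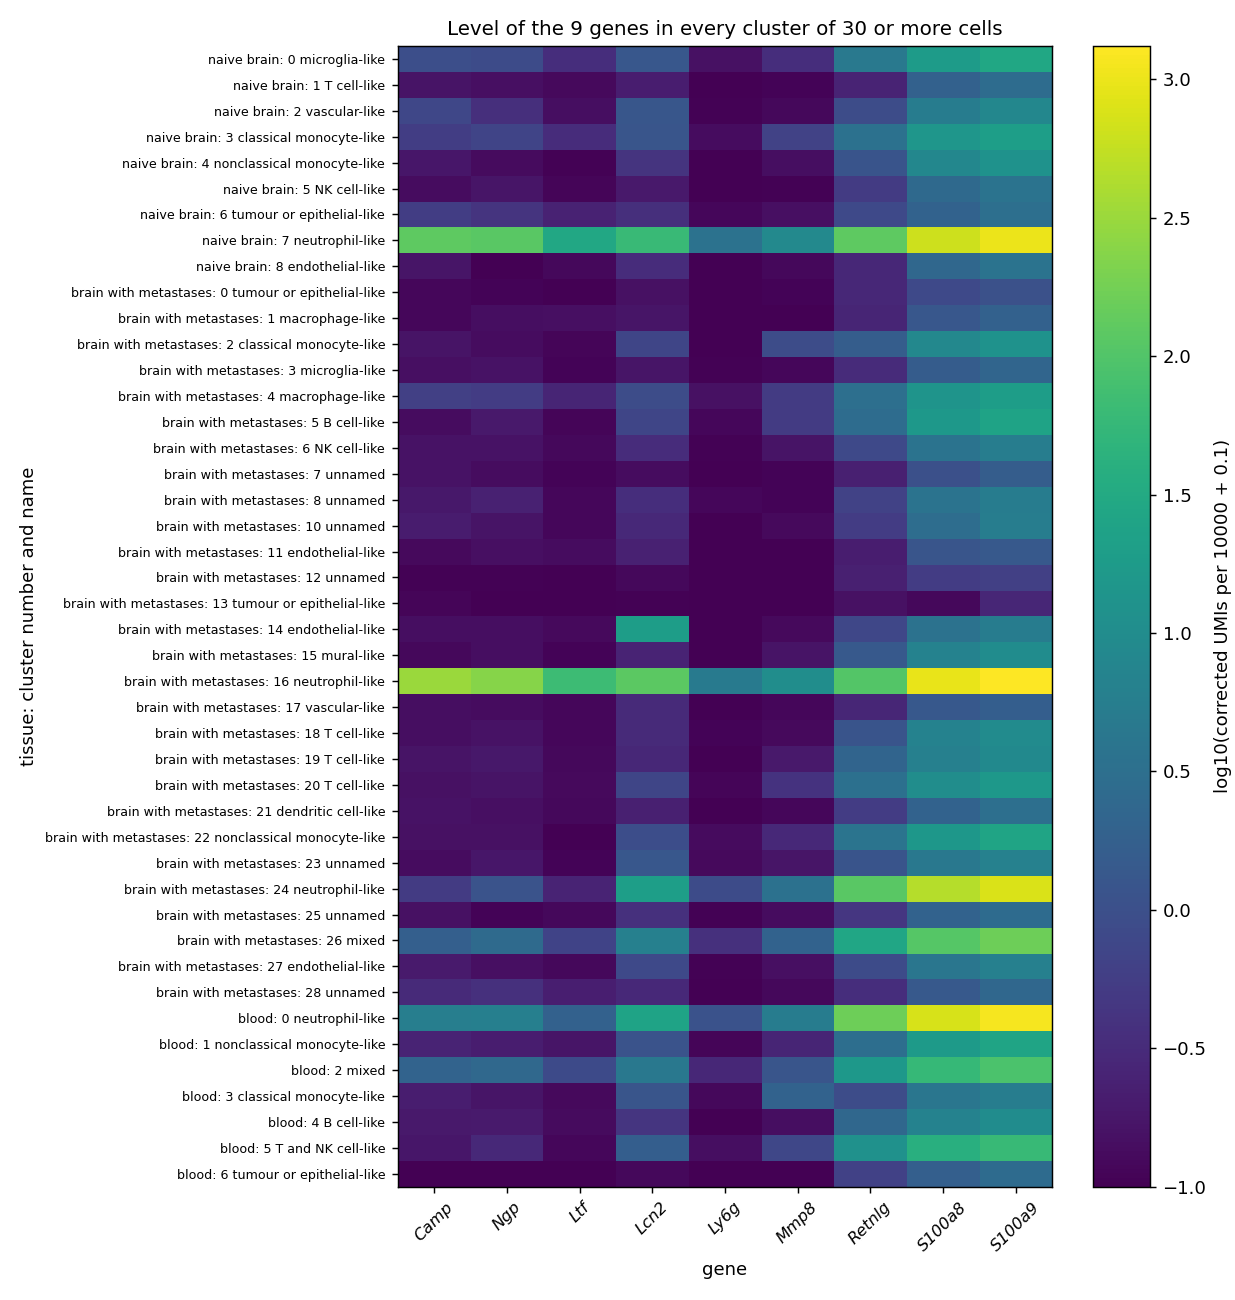
Level of the 9 genes, as log10 of corrected UMIs per 10000 plus 0.1, in every cluster of 30 or more cells of the 3 tissues. The neutrophil clusters stand out in all columns except cluster 24 and the blood for Camp, Ngp and Ltf, and cluster 14 of the brain with metastases stands out for Lcn2.

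A single source of stray RNA keeps its genes in the same ratio in every cell type. Ratios of molecules were therefore compared with those of neutrophils. The reference was the neutrophils of the same tissue, although the 3 matrices came from 1 droplet pool. A ratio past this reference can still lie within the range of neutrophils of the other tissues. Whether stray RNA crossed tissues was not tested. S100a8 per S100a9 was 0.660 in naive brain neutrophils and 0.617 to 0.70 in the 8 other naive brain clusters with at least 20 molecules of the pair. It was 0.638 in blood neutrophils and 0.527 to 0.752 in 7 other blood clusters. In the brain with metastases it was 0.683 in neutrophils and 0.120 to 0.867 in 27 other clusters, the lowest in a tumour or epithelial-like cluster with 3 S100a8 molecules. Retnlg per S100a8 ran from 0.0825 to 0.366 in other clusters of the naive brain, 0.0982 to 0.332 in the brain with metastases and 0.171 to 0.342 in the blood. No cluster outside neutrophils reached 3-fold over its tissue's neutrophils in either of these ratios. Camp per S100a8 did in 2 blood clusters, at 0.0334 (0.0306 to 0.0364) in mixed cluster 2 and 0.0281 (0.0179 to 0.0421) in classical monocytes of cluster 3, against 0.00748 in blood neutrophils, and in 5 blood clusters among cells with fewer than 10 S100 molecules. The ratios of blood clusters 2 and 3 were below those of neutrophils of the naive brain and of the brain with metastases, whose molecules follow. Camp per S100a8 reached 3-fold over neutrophils in no cluster of the other tissues, but ratios below neutrophils were not counted. It ran from 0.00952 to 0.241 in other naive brain clusters, where neutrophils held 12366 Camp and 63235 S100a8 molecules. In other clusters of the brain with metastases it ran from 0.00235 to 0.158, where neutrophils held 43728 and 200959. The lowest clusters thus lay far below neutrophils in both tissues.

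Lcn2 per S100a8 was 3-fold or more over neutrophils, with intervals apart, in 1 cluster of the brain with metastases and in 2 clusters of the blood. The first was endothelial-like. Cluster 14, led by Ackr1, Vwf, Slc38a5 and Vcam1, of which Ackr1 and Vwf are known from venous endothelium, had 4924 Lcn2 molecules, 19.6 CP10k (19.1 to 20.2), the level of the neutrophils of cluster 24. A molecule was counted in 169 of its 185 cells (91.4%), with a median of 13 per cell and a maximum of 317. Lcn2 per S100a8 was 5.60 (5.21 to 6.03) there, against 0.0960 in the neutrophils of that tissue. It was 19.9 without shared barcodes, where 5 clusters of that tissue were past 3-fold, and 29.5 in cells with fewer than 10 S100 molecules, where 8 were. Among these was the endothelial-like cluster 27, at 0.539 without shared barcodes and 0.768 in cells with fewer than 10 S100 molecules. The other endothelial-like clusters were far lower, at 0.723 CP10k in cluster 27, with 35 of 230 cells positive (15.2%), and 0.139 in cluster 11, with 12 of 112 (10.7%). T cells of cluster 18 gave a background of 6.67% of cells, at a median of 13018 corrected UMIs, against 13001 in cluster 14. Camp was at 0.0399 CP10k in cluster 14, with 10 molecules. In the naive brain, the vascular-like cluster 2 had Lcn2 at 1.49 CP10k in the sample labelled depleted and 0.675 in that labelled control, in 31 of 285 and 21 of 194 cells. The top 5% of cells held 87.4% and 83.9% of those molecules, and without cells of extreme gene number the difference reversed (log2 −1.95). In the blood, classical monocytes of cluster 3 had an Lcn2 per S100a8 of 0.272 (0.234 to 0.314) and the 19 cells of unnamed cluster 7 one of 0.111 (0.0557 to 0.202), against 0.0322 in blood neutrophils. Against the 0.0960 of neutrophils of the brain with metastases, from the same pool, neither blood cluster was 3-fold over.

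Mmp8 per S100a8 was 3-fold or more over neutrophils, with intervals apart, in 1 blood cluster, cluster 3 of classical monocytes, in 4 clusters of the brain with metastases and in none of the naive brain. In cluster 3 of the blood it was at 2.03 CP10k in the sample labelled depleted and 1.64 in that labelled control, with a molecule in 107 of 195 (54.9%) and 84 of 160 (52.5%) cells, and the top 5% of cells held 22.8% and 23.9% of the molecules. Mmp8 per S100a8 was 0.453 (0.401 to 0.512) there, against 0.00701 in blood neutrophils, and 2.71 (2.22 to 3.33) in cells with fewer than 10 S100 molecules. The B cells of the blood had a molecule in 3 of 249 cells (1.20%), at a raw median of 4200 UMIs against 11686 in cluster 3. In the brain with metastases the classical monocyte-like cluster 2 had Mmp8 at 0.810 CP10k in 85 of 177 cells (48.0%), and its Mmp8 per S100a8 was 0.0970 (0.0834 to 0.112), against 0.00966 in the neutrophils of that tissue. The ratio was 0.0307 in macrophage-like cluster 4 and 0.0290 in T cell-like cluster 20, just past 3-fold, and 0.235 in the unnamed cluster 9, which held 4 Mmp8 molecules. Cluster 20 had 55.1% of its barcodes shared and also passed on 5 of 8 classical monocyte markers, and their part was not tested. In the naive brain, classical monocytes had it at 0.472 CP10k in the sample labelled depleted and 0.657 in that labelled control, in 22.7% of cells labelled depleted and 40.5% of those labelled control. Their Mmp8 per S100a8 was 0.0381, against 0.0131 in naive brain neutrophils, under 3-fold, and it was 0.0520 without shared barcodes, past 3-fold.

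**Figure D5:**
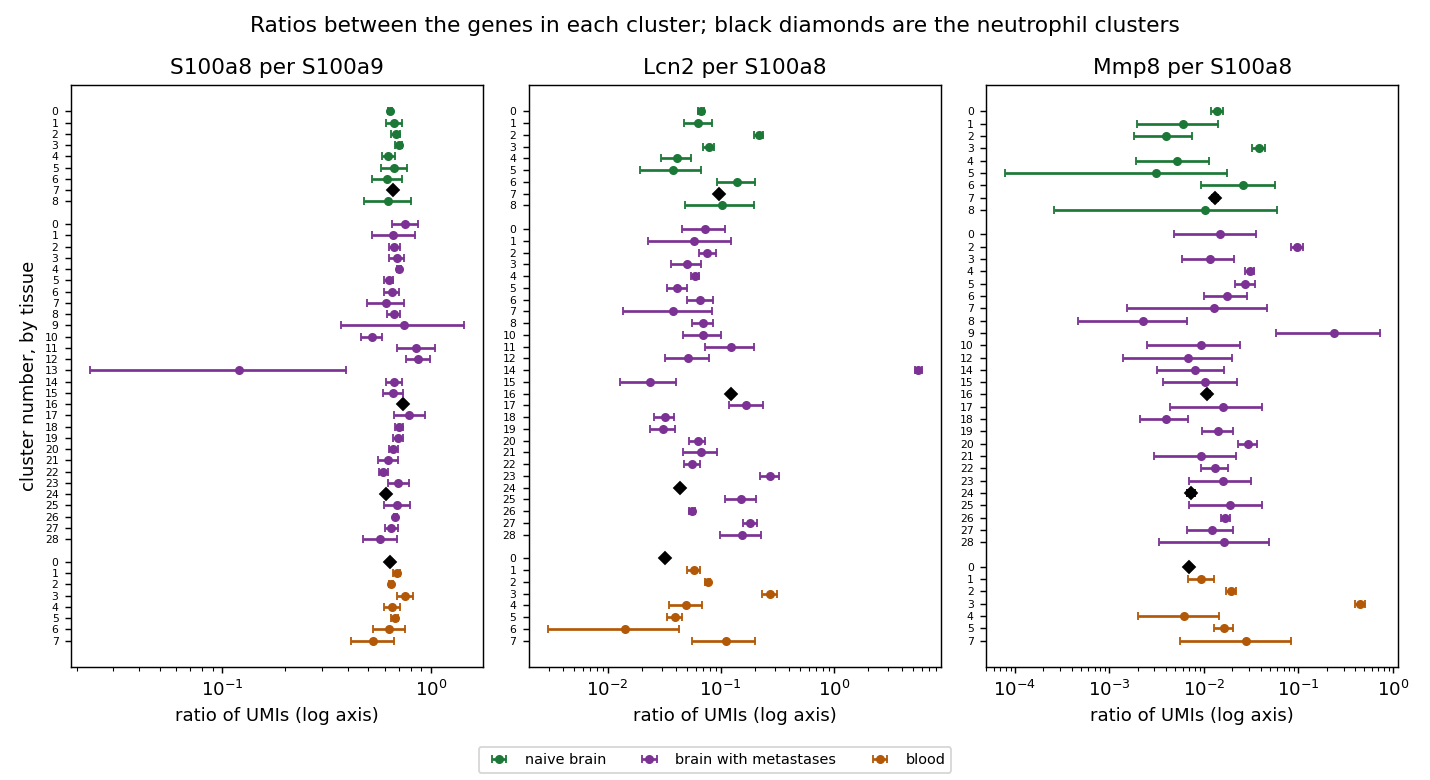
Ratio of corrected UMIs (log axes) of S100a8 per S100a9, Lcn2 per S100a8 and Mmp8 per S100a8 in each cluster with enough molecules, with exact 95% intervals. Black diamonds are neutrophil clusters. Cluster 14 of the brain with metastases stands at 5.60 for Lcn2 per S100a8 and cluster 3 of the blood at 0.453 for Mmp8 per S100a8.

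The arms were also compared in the other clusters, where the calgranulins were low. In classical monocytes of the naive brain, S100a8 was at 8.02 CP10k in the sample labelled depleted and 23.8 in that labelled control (log2 −1.56). Of 7 genes measured there 3 were past 2-fold lower, beside 1.35% of genes past 2-fold lower. In nonclassical monocytes of the blood, S100a8 was at 11.9 CP10k in the sample labelled depleted and 40.1 in that labelled control (−1.75), beside 1.54% of genes past 2-fold lower, and at 6.90 and 14.6 without shared barcodes. The top 5% of those cells held 73.2% and 61.7% of the molecules. In B cells of the blood the direction was opposite, with S100a8 at 9.32 CP10k in the sample labelled depleted and 4.63 in that labelled control (0.99), and Retnlg at 3.79 in the sample labelled depleted and 1.14 in that labelled control (1.65), beside 0.745% of genes past 2-fold higher. In microglia of the naive brain all 6 measured genes had negative log2 ratios of depleted over control, with S100a8 at 17.0 against 23.6 CP10k (−0.47) and 1 of the 6, Ngp, past 2-fold (−1.27), beside 0.977% of genes past 2-fold lower. In NK cells of the naive brain the direction was opposite to that of microglia and monocytes, with all 3 measured genes past 2-fold higher in the sample labelled depleted, beside 1.45% of genes. S100a8 was at 2.84 CP10k there in the sample labelled depleted and 1.16 in that labelled control (1.22), and at 1.58 and 0.824 without shared barcodes. In T cells of the naive brain both measured genes were higher, with S100a8 at 1.96 CP10k in the sample labelled depleted and 0.898 in that labelled control (1.04), beside 0.462% of genes past 2-fold higher, and at 1.42 and 1.17 without shared barcodes. The share of these molecules that came from neutrophil RNA was not tested.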

How the data were processed

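RNA, antibody tags and hashing tags of 1 droplet pool were read as 3 libraries. Per the submitters' processing notes, Cell Ranger 3.1 and Seurat 3.1.1 were used with mm10. The authors deposited matrices of natural log values, ln(1 + corrected UMI), which is the layout of a Seurat SCTransform assay. Undone, the values were whole numbers, and their sums equal the corrected totals of the annotation in all 2653 naive brain and all 2924 blood cells. Raw UMI counts per cell, arms, clusters and gates came from the deposited annotation, of which 66 columns were not used. Corrected UMIs differ from raw counts and cannot be tested as counts.

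All deposited cells were kept and no doublet caller was run. Corrected UMIs were summed by class. Log2 ratios add a pseudocount of 0.1 CP10k, and genes under 0.5 CP10k on both sides were left out. Intervals are exact (Poisson, Clopper-Pearson or conditional, 95%, with no pseudocount) and cover counting error only, on corrected UMIs. With 1 sample per arm and tissue no test was made, and genes past 2-fold are counted as a description beside the share of all genes past it. The brain with metastases was clustered with scanpy 1.11.5, leidenalg 0.10.2, 2000 variable genes without the 9, 30 components, 20 neighbours and resolution 1.0. A class was named from at least 3 markers and called mixed where a second type reached 0.7 of its list. Named genes are the 9, fixed stage lists and, by rule, the 10 genes most alike in blood neutrophils. The members and lists were chosen with earlier results of these data known. Only the log2 ratio and its interval were checked, on simulated Poisson sums with known folds. That check does not cover the correction of counts, cell-to-cell spread, clustering, naming, stray RNA or shared barcodes. Alternatives were other pseudocounts, cells without shared barcodes, cells within 3 median absolute deviations of detected genes and the surface gate. Others were other splits of Camp, Ngp and Ltf molecules, thinning to 2000 corrected UMIs, an earlier annotation table and Leiden resolutions 0.5 and 2.0. Dropping the filter on low values was planned but not run separately, because all 9 genes passed it in the neutrophil arm comparisons.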

Additional observations from a re-analysis of the deposited data

Results flagged for a closer look

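For 6 of the 9 genes the log2 ratio of the sample labelled depleted over that labelled control had opposite signs in naive brain neutrophils and in blood neutrophils. The share of all genes with opposite signs was not counted, so this count is not read as a trait of the 9. Without shared barcodes Camp and Ngp no longer had opposite signs. The difference was not tested, since each tissue has 1 sample per arm, and it also crosses naive and metastasis-bearing mice. Retnlg was at −0.72 in naive brain and 0.62 in blood neutrophils. Camp was at −0.36 in naive brain and 0.71 in blood neutrophils. Without shared barcodes it was at −0.12 and −0.33, negative in both. Ngp was at −0.15 in naive brain and 0.72 in blood neutrophils. Without shared barcodes it was at 0.08 and 0.78, positive in both. Ltf was at −0.53 in naive brain and 0.67 in blood neutrophils. Lcn2 was at −0.31 in naive brain and 0.44 in blood neutrophils. Mmp8 was at −0.42 in naive brain and 0.21 in blood neutrophils. S100a8, S100a9 and Ly6g had negative ratios in both tissues.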

How the results depend on the processing

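Counts of the 9 genes lower or higher between arms and past 2-fold between tissues were within 1.5 times of the reported counts under every alternative run. Dropping the filter on low values could not change the arm counts, because all 9 genes had passed it. The earlier annotation table could not change them either, because its arms and clusters were the same in all 2924 blood cells. S100a8 in cells with Camp, Ngp or Ltf against none moved to 1.16 at a cut of at least 1 molecule and 1.56 without shared barcodes in the naive brain (reported 1.37), to 1.59, 1.76 at a cut of at least 10 and 1.97 without shared barcodes in the brain with metastases (1.73), and to 0.31, 0.73 and 0.76 in the blood (0.65). Without shared barcodes Lcn2 per S100a8 in cluster 14 was 19.9, and S100a8 per S100a9 in blood nonclassical monocytes was 0.733 (reported 0.686). In cells with fewer than 10 S100 molecules these were 29.5 and 0.799, and Mmp8 per S100a8 in blood cluster 3 was 2.71. The share of blood neutrophils with Ly6g was 9.32% at a minimum of 2 molecules, 5.69% at 3 and 11.3% after thinning, and that of naive brain neutrophils 29.5% after thinning. Signs reversed without shared barcodes for S100a9 (0.27) and Camp (0.33) in naive brain vascular-like cells, Camp in naive brain classical monocytes (−2.24), Ngp in naive brain neutrophils (0.082), Camp in blood neutrophils (−0.33) and Lcn2 in the mixed blood cluster (−0.58), all between arms. They also reversed for naive brain over blood neutrophils in S100a8 (0.18) and S100a9 (0.15), and for the brain with metastases over blood in S100a8 (0.020). Cells of extreme gene number, left out, reversed Lcn2 in vascular-like cells (−1.95) and Camp in blood neutrophils (−0.51). In samples labelled control alone, S100a8 (0.044) and Retnlg (0.29) of naive brain over blood reversed, an alternative chosen after seeing the data, as were the gate of the earlier annotation, the 4 groups of Camp, Ngp and Ltf molecules and the 0.7 limit for mixed clusters. The causes were not tested. Of the other values, 254 moved past their counting interval and 371 did not. The 232 neutrophils of the brain with metastases were in the neutrophil clusters under all 3 other clusterings, of 232 to 262 cells. No paired analysis was possible because the result comes from no test and each arm has 1 sample per tissue.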

Other observations

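Lcn2 was also counted outside neutrophils and endothelial-like cells. In cluster 23 of the brain with metastases, an unnamed group of 85 cells led by Ttr, Enpp2 and Folr1, Lcn2 was at 1.20 CP10k (1.01 to 1.42), with a molecule in 14 cells (16.5%), and the top 5% of cells held 76.5% of the molecules. Its Lcn2 per S100a8 was 0.272 (0.223 to 0.329), against 0.0960 in the neutrophils of that tissue. In classical monocytes of the blood Lcn2 was at 1.31 CP10k in the sample labelled depleted and 0.880 in that labelled control.

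Genes of the same families as the 9 were measured in neutrophils as well. S100a6 was at 44.9 CP10k in naive brain neutrophils against 72.4 in blood neutrophils, and S100a11 at 40.6 against 86.1. Ly6c2, a surface protein gene related to Ly6g that monocytes also express, was at 4.26 CP10k in naive brain neutrophils against 1.03 in blood neutrophils, and at 11.4 in cluster 16 against 0.987 in cluster 24 of the brain with metastases. Retn, related to Retnlg, was at 0.0924 CP10k in naive brain neutrophils against 0.406 in the blood. Of the receptors that calprotectin and lipocalin are known to bind, Tlr4 was at 0.134 CP10k in naive brain neutrophils against 0.374 in the blood, Ager at 0.103 against 0.0894 and Slc22a17 at 0.0411 against 0.0138. Retn and these receptors were under 0.5 CP10k on both sides, below the limit for a measured gene, so their differences are not read.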
